A study of Rattus norvegicus with 44 samples.

Results

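Kidneys of obese ZSF1 rats given Enalapril alone were compared with kidneys of obese ZSF1 rats given the vehicle. The comparison takes 20 of the 44 kidney libraries of the study, 9 from the Enalapril group and 11 from the Vehicle group, chosen by their column names, with 1 library per animal. All animals were male obese ZSF1 rats, a hybrid strain that carries the leptin receptor alleles fa and cp and develops obesity, diabetes and kidney disease. They were 22 weeks old at the start, carried an implanted blood pressure transmitter, and were treated for 6 months through the feed, with Enalapril at 3 mg/kg/day or with feed that held no drug. RNA came from a part of the snap-frozen right kidney. The other libraries came from 12 rats given Compound 1, a stimulator of soluble guanylate cyclase, at 1 mg/kg/day raised to 3 mg/kg/day, and from 12 rats whose feed held Enalapril (3 mg/kg/day) together with Compound 1 (1 mg/kg/day), called the combination.

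Enalapril is converted in the body to an inhibitor of angiotensin-converting enzyme, which makes angiotensin II from angiotensin I, a peptide cut from angiotensinogen. Angiotensin II constricts vessels and stimulates aldosterone. The same enzyme breaks down bradykinin. In the diseased kidney, angiotensin II is known for its effects on glomerular pressure, tubular injury, inflammation and scarring.

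Levels are given in FPKM as the authors deposited them, that is, sequenced fragments scaled to transcript length and to the mapped reads of the library, so levels can be compared between genes. Of 32883 entries, 13482 with an FPKM above 1 in at least 9 of the 44 animals were tested with limma on log2(FPKM + 0.1), and fold changes are on that scale, which understates the change of genes near the pseudocount of 0.1. A DEG had a fold change above 1.5 or under 0.66 and an adjusted p (Benjamini-Hochberg) under 0.05. Enalapril gave 611 DEGs (4.53% of the tested genes), of which 66 were higher (0.49%) and 545 lower (4.04%) than Vehicle. All genes together had a median log2 fold change of -0.15. When FPKM were rescaled by the median of ratios, which brings that median to 0.00, 205 genes were higher (1.52%) and 164 lower (1.22%). The counts of each list after rescaling stand against these shares. All 66 higher DEGs were also called after rescaling, and 164 of the 545 lower ones were.

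The kidney label was borne out by its markers. Umod, the thick ascending limb glycoprotein, had a median of 957 FPKM in Vehicle and 991 FPKM with Enalapril, and Slc34a1, the proximal phosphate transporter, 969 and 1144 FPKM. Pvalb, listed as a marker of the distal convoluted tubule, was at or near 0 in both groups. Some library properties moved with the groups. The number of genes above FPKM 1 was 13067 ± 155 (SD, n = 11) in Vehicle and 12739 ± 139 (n = 9) with Enalapril (two-sided exact permutation test, p = 5.95e-06, the smallest p it can give). Relative depth was 0.913 ± 0.174 and 1.11 ± 0.208 (exact permutation p = 0.0328), and 13 mitochondrially encoded genes held 27.5 ± 5.38% and 32.8 ± 5.9% of FPKM (exact permutation p = 0.0515). The summed FPKM of 6 genes listed for the inner medulla ran from 128 to 245 in Vehicle (median 165) and from 111 to 175 with Enalapril (median 144). This list shares Aqp2, Aqp4 and Fxyd4 with the list of principal cells, so it is not specific to the inner medulla. Aqp2 alone had medians of 79.4 and 66.6 FPKM. With the mean log2 level of the inner medulla list as a covariate, 10 genes were higher (0.0742%) and 123 lower (0.912%), the shares for the counts of each list with the covariate. With mitochondrial genes removed and totals made equal, 109 genes were higher and 325 lower, at a median log2 fold change of -0.09. The part that relative depth and the number of genes above FPKM 1 had in the results was not tested. Since these are bulk samples, fewer cells of a type and less RNA per cell cannot be told apart.

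Selected genes of the angiotensin and kinin list are described by their own values. Of 26 listed genes 19 were tested, and the median log2 fold change was -0.03, or 0.11 after rescaling, against -0.15 over all tested genes. Agt, the precursor angiotensinogen, was at 27.4 FPKM (median, 22.7 to 31.9) in Vehicle and 29.1 FPKM (25.7 to 33.8) with Enalapril, with a log2 fold change of 0.14 ± 0.08 (SE) and an adjusted p of 0.157. Agtr1a, the main angiotensin II receptor, had a log2 fold change of 0.02 ± 0.08 (adjusted p = 0.856), with a sign that turned when 2011 or 2012 was left out. Agtr1b, its second form in rodents, was near 1 FPKM in both groups, and its log2 fold change of -0.03 ± 0.18 (adjusted p = 0.917) turned sign after rescaling.

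The drug's target passed the p threshold by a small amount. Ace ran from 5.94 to 8.2 FPKM in Vehicle (median 6.86) and from 4.74 to 6.79 FPKM with Enalapril (median 5.7), and the groups overlapped. Its log2 fold change was -0.25 ± 0.08 (adjusted p = 0.0282), short of the fold threshold, and -0.10 ± 0.08 after rescaling (adjusted p = 0.409).

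Other peptidases of the brush border include Mme, Enpep and Anpep. Mme (neprilysin) ran from 9.26 to 45.4 FPKM in Vehicle (median 29.7) and from 30.6 to 50.2 FPKM with Enalapril (median 41.8), and was called at a log2 fold change of 0.59 ± 0.21 (adjusted p = 0.0352), a call lost with the inner medulla covariate and without any of 9 single animals. Enpep (aminopeptidase A) had a log2 fold change of 0.40 ± 0.13 (adjusted p = 0.024) and Anpep (aminopeptidase N) of 0.33 ± 0.09 (adjusted p = 0.00822), both under the fold threshold. On the kinin side, Kng1, a kininogen gene, was at a median of 12.1 FPKM in Vehicle and 8.37 FPKM with Enalapril, with a log2 fold change of -0.52 ± 0.11 (adjusted p = 0.00198), also under the fold threshold. Bdkrb2, the bradykinin receptor, had a log2 fold change of -0.41 ± 0.16 (adjusted p = 0.054).

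Among aldosterone-responsive genes 1 of 19 was called, in the higher direction (5.26%, against 0.49% of all tested genes). Sgk1, a kinase induced by aldosterone that keeps sodium channels at the membrane, ran from 41.5 to 88.8 FPKM in Vehicle (median 53.4) and from 63.8 to 116 FPKM with Enalapril (median 88.4), with overlapping groups. It rose by 0.61 ± 0.14 on the log2 scale (adjusted p = 0.0027), just past the fold threshold, and lost the call without any of 6 single animals.

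Some genes of mast cells fell. Cma1 encodes a chymase, a protease of mast cells, and stands in this list and in the angiotensin and kinin list. Cpa3 encodes the mast cell carboxypeptidase. The promoters of Cma1 and Cpa3 are shown because both transcripts were lower with Enalapril alone, and that of Mcpt2, also lower, is not shown. RefSeq gives, on build GRCr8, 250 bases before and 50 after each start, both on the minus strand and printed 5′ to 3′, with matches of TATAAA, a core promoter element, and of AGATAA, a form of the site that GATA factors bind, in capitals.
Cpa3 (chr2:104673188-104673487): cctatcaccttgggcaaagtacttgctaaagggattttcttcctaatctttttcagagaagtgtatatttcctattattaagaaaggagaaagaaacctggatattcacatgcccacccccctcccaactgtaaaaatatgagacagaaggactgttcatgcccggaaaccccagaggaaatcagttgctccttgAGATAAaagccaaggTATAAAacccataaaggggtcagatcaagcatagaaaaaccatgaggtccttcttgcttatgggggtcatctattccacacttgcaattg
Cma1 (chr15:33390084-33390383): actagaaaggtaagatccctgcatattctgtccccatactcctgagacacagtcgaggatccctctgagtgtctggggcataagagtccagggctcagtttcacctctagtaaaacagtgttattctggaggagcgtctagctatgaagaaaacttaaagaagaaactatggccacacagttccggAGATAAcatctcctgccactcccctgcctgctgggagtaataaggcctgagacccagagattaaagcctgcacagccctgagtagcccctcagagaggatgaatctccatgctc
Cpa3 holds AGATAA beginning 55 bases and TATAAA beginning 40 bases before the start, and Cma1 holds AGATAA 64 bases before it. On either strand, AGATAA stands in 11.6% and TATAAA in 14.2% of 33469 promoters of that length, and these matches are a description of the sequence only.

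Of 18 mast cell genes listed, 5 were tested and 3 were lower, as they were after rescaling. Cma1 ran from 1.77 to 4 FPKM in Vehicle (median 2.57) and from 0.651 to 1.91 FPKM with Enalapril (median 1.13), and 8 of the 9 Enalapril animals lay below every Vehicle animal. It was 2.15-fold lower, with a log2 fold change of -1.10 ± 0.18 (adjusted p = 0.00028). Cpa3 ran from 0.958 to 3.71 FPKM (median 2.47) and from 0.162 to 1.85 FPKM (median 0.886), with 6 of 9 below all of Vehicle, and was 2.71-fold lower (log2 fold change -1.44 ± 0.28, adjusted p = 0.00109). Mcpt2, a mast cell protease, ran from 9.26 to 21.1 FPKM (median 15.6) and from 3.82 to 15.4 FPKM (median 5.57), and had a log2 fold change of -1.29 ± 0.21 (adjusted p = 0.000303), with Enalapril animal 2103 apart from the others at the top. None of the 3 calls was lost without any single animal. Kit, the stem cell factor receptor that other kidney cells also carry, was not called, at a log2 fold change of -0.21 ± 0.09 (adjusted p = 0.0682). The tryptases Tpsab1 and Tpsb2 stayed under 1 FPKM in both groups and were not tested. Mcpt8l3, named as a mast cell protease and outside the list, fell from a median of 3.72 FPKM to 0.902 FPKM, a 3.4-fold decrease (adjusted p = 0.00234) with near-identical copies in the rat genome that make its value uncertain.

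The list of distal calcium and magnesium transport, which also holds vitamin D enzymes, had calls in both directions. Of 18 tested genes 2 were higher and 3 lower, as deposited, 2 and 2 after rescaling, and none and 2 with the inner medulla covariate. Trpv6, an apical calcium channel, ran from 2.46 to 10.9 FPKM in Vehicle (median 4.46) and from 1.12 to 2.22 FPKM with Enalapril (median 1.71), without overlap. It was 3.08-fold lower (log2 fold change -1.62 ± 0.22, adjusted p = 0.000162). Its close relative Trpv5 ran from 6.34 to 15.9 FPKM (median 7.87) and from 4.08 to 6.79 FPKM (median 5.07), with 7 of 9 Enalapril animals below all of Vehicle, and was 1.7-fold lower (log2 fold change -0.77 ± 0.14, adjusted p = 0.000739).

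The vitamin D enzymes moved oppositely. Cyp24a1, which inactivates vitamin D, ran from 33.3 to 73.8 FPKM in Vehicle (median 47.9) and from 53 to 167 FPKM with Enalapril (median 77.5), with a log2 fold change of 0.70 ± 0.17 (adjusted p = 0.00413) that lost its call without animal 2012, the highest. Cyp27b1, which makes the active hormone, had medians of 3.24 and 2.06 FPKM and a log2 fold change of -0.87 ± 0.27 (adjusted p = 0.0189), which did not pass after rescaling. S100g, the calcium carrier calbindin-D9k, was higher, at medians of 4.57 and 6.77 FPKM (log2 fold change 0.61 ± 0.17, adjusted p = 0.00897). Without 2012 neither of the 2 higher genes of the list was called.

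**Figure D1:**
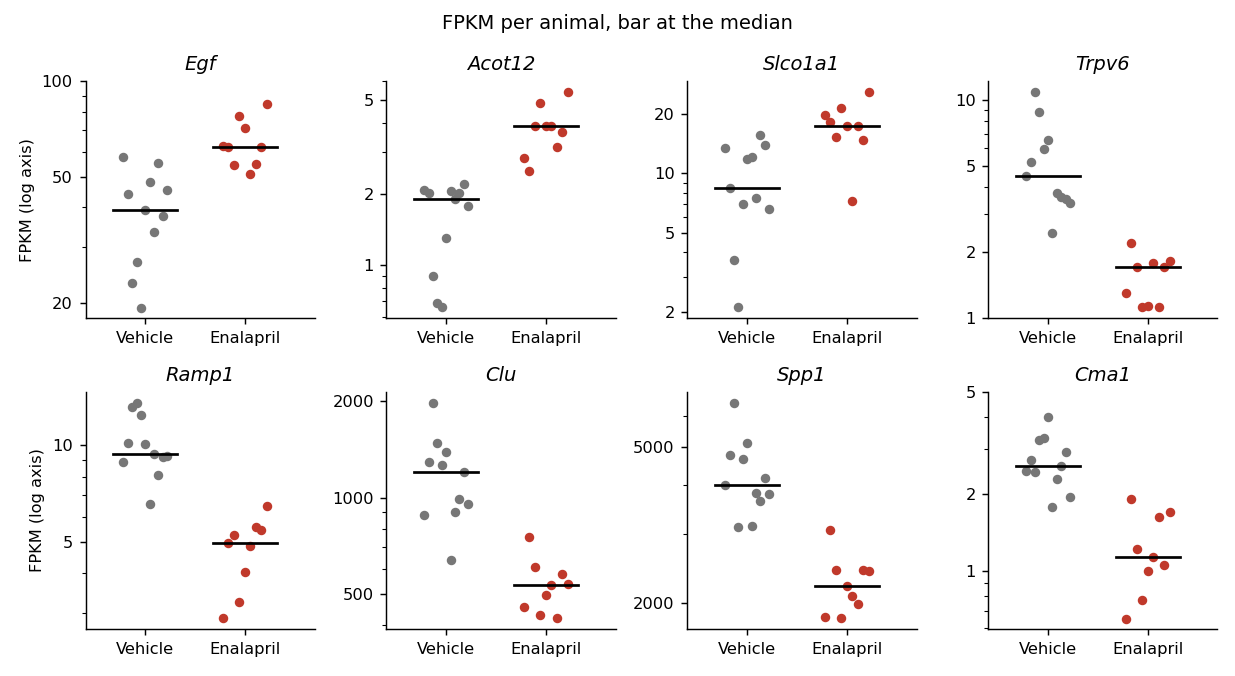
Level of 8 genes in each kidney (FPKM, log axis) of the Vehicle and Enalapril groups, with 1 point per animal and a bar at the group median. The groups do not overlap for Acot12, Trpv6, Ramp1 and Spp1, while Egf, Slco1a1, Clu and Cma1 overlap in some animals.

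Genes of organic ion transport and of the proximal tubule were among those that rose. Of the 66 higher DEGs, 12 carried only locus identifiers and 28 stood in a list. Of 35 organic ion transporters 7 were higher and none lower, at a median log2 fold change of 0.26, and 10 were higher after rescaling, but 3 without Vehicle animal 1003 and none with the inner medulla covariate. Slco1a1, an organic anion transporter, ran from 2.11 to 15.6 FPKM in Vehicle (median 8.41) and from 7.26 to 25.8 FPKM with Enalapril (median 17.4). The groups overlapped, with 6 of 9 Enalapril animals above all of Vehicle, and the log2 fold change was 1.03 ± 0.29 (adjusted p = 0.0119). Its relative Slco1a6 was at medians of 54.4 and 83.7 FPKM (log2 fold change 0.81 ± 0.22, adjusted p = 0.00981), and both calls held without any single animal. Slc22a2, the organic cation transporter of the basolateral membrane, was at medians of 148 and 239 FPKM (log2 fold change 0.67 ± 0.13, adjusted p = 0.0014), a call lost without 1003.

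Of 34 proximal tubule genes 31 had a positive log2 fold change, at a median of 0.29, and 3 were called higher, Slc7a13, Pck1 and Slc22a7. After rescaling 7 were called. Without 1003, or without 1006, 1 was called, and with the inner medulla covariate none. With that covariate 31 were still positive, at a median of 0.23, but none had an adjusted p under 0.05, against 21 without it. The summed FPKM of the list was 6994 to 12082 in Vehicle (median 10915) and 11006 to 15299 with Enalapril (median 12834). Pck1, the gluconeogenic enzyme PEPCK, ran from 655 to 1671 FPKM in Vehicle (median 1436) and from 1498 to 2277 FPKM with Enalapril (median 1843), and 8 of 9 lay above all of Vehicle. It had a log2 fold change of 0.62 ± 0.16 (adjusted p = 0.00679), lost without 1003, 1004 or 1006.

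Acot12, a thioesterase that splits acetyl-CoA, ran from 0.66 to 2.2 FPKM in Vehicle (median 1.9) and from 2.51 to 5.41 FPKM with Enalapril (median 3.87). The groups did not overlap, which held with Enalapril higher for 9 of all tested genes (0.0668%), and the rise was 2.4-fold (log2 fold change 1.26 ± 0.22, adjusted p = 0.000422). It was the called member among 64 genes of fatty acid oxidation and ketogenesis (1.56%, against 0.49% higher among all tested genes). Of these 64 genes 55 had a positive log2 fold change, and the median was 0.17. Apoc2, the cofactor of lipoprotein lipase, ran from 7.18 to 20.8 FPKM (median 14.1) and from 16 to 67.4 FPKM (median 29.4), a 2.28-fold rise (adjusted p = 0.0012).

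Other metabolic lists held calls in both directions, except the conjugating enzymes, which held higher ones alone. These calls are to be set against 0.49% higher and 4.04% lower among all tested genes. Of 25 tested retinoid genes 1 was higher and 2 lower, 3 and 1 after rescaling, and none and 1 with the covariate. Rbp4, the retinol carrier, ran from 16.2 to 50.8 FPKM in Vehicle (median 35.3) and from 41.8 to 76.5 FPKM with Enalapril (median 60.7), with a log2 fold change of 0.86 ± 0.18 (adjusted p = 0.00188), a call lost with the inner medulla covariate. Lrat, which stores retinol as its ester, was lower without overlap, at 1.77 to 4.72 FPKM (median 2.52) and 0.527 to 1.51 FPKM (median 1.12), a 2.17-fold fall (adjusted p = 0.000343). Of 31 conjugating enzymes 2 were higher, 8 after rescaling, 1 with the covariate, and from 1 without 1003, 1004, 1006 or 2005 to 4 without 1001, 1009 or 2010. Nat8f3, of the NAT8 acetyltransferase family, had medians of 63.6 and 105 FPKM (log2 fold change 0.71 ± 0.12, adjusted p = 0.000423). Of 32 cytochrome P450 genes 3 were higher and 2 lower, 8 and 1 after rescaling, none and 1 with the covariate, and 1 was higher without 1003 or 2012. Of 50 genes of glutathione and NRF2 1 was higher (2%) and 3 lower (6%), the latter near the 4.04% of all tested genes. The counts were 5 and 1 after rescaling, and none and 1 with the covariate. With single animals left out none to 3 were higher and 2 to 5 lower, none higher without 1003 or 1004 and 5 lower without 1008. Gclc, the catalytic subunit of the first enzyme of glutathione synthesis, had medians of 369 and 472 FPKM (log2 fold change 0.61 ± 0.15, adjusted p = 0.00562), a call lost with the covariate and without 1003, 1004, 1006 or 2001. The lower ones were Chac1, which breaks down glutathione (log2 fold change -0.88 ± 0.27, adjusted p = 0.018), the peroxidase Gpx2 (-0.67 ± 0.11, adjusted p = 0.000376) and Ggt7 (-0.61 ± 0.21, adjusted p = 0.0296), of which Chac1 alone was called after rescaling and with the covariate.

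Egf, a growth factor made in the thick ascending limb and distal convolution, ran from 19.3 to 57.5 FPKM in Vehicle (median 39.3) and from 50.8 to 84.8 FPKM with Enalapril (median 62.1). The groups overlapped, with 6 of 9 Enalapril animals above all of Vehicle. It rose 1.71-fold (log2 fold change 0.77 ± 0.17, adjusted p = 0.00218), and no animal left out ended the call. The other 17 tested genes of this tubular segment were not called, and the list's median was 0.03.

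**Figure D2:**
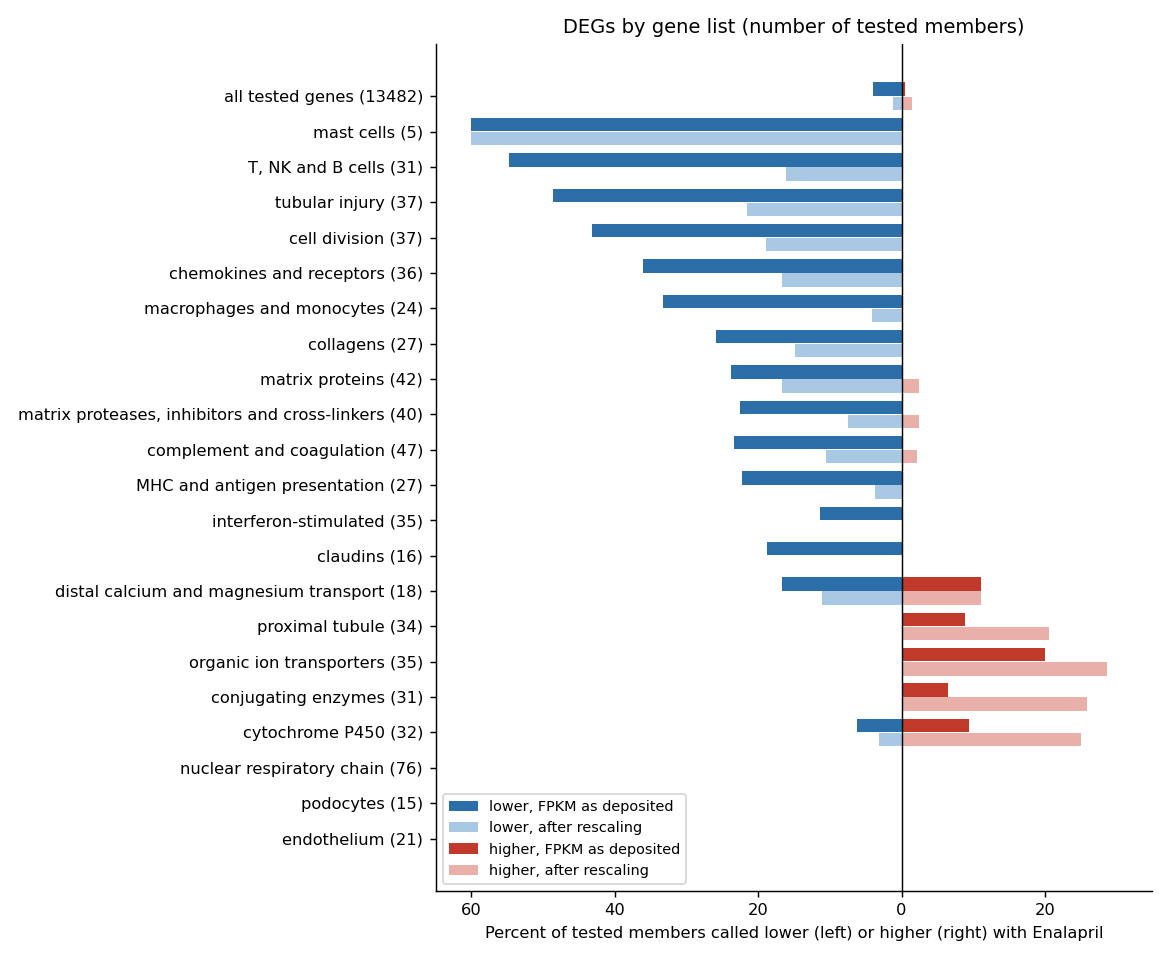
Percent of all tested genes, and of the tested members of selected gene lists (their number in parentheses), that were DEGs lower (blue, left) or higher (red, right) with Enalapril, with dark bars for FPKM as deposited and pale bars after median-of-ratios rescaling. The 3 of 5 mast cell genes keep their share. The lower shares of T, NK and B cells, tubular injury and cell division shrink after rescaling, as does that of all tested genes, from 4.04% to 1.22%.

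Many genes of the injured tubule fell. Of 37 tested, 18 were lower and none higher, 36 had a negative log2 fold change and the median was -0.60, while all tested genes had a median of -0.15. After rescaling 8 were lower (21.6%, against 1.22% of all tested genes), with the inner medulla covariate 8, and without 1003 16. Spp1, osteopontin, ran from 3126 to 6490 FPKM in Vehicle (median 3996) and from 1826 to 3059 FPKM with Enalapril (median 2212), without overlap. It was 1.87-fold lower (log2 fold change -0.90 ± 0.12, adjusted p = 0.000162). Groups that did not overlap, with Enalapril lower, were found for 116 of all tested genes (0.86%).

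Clu, clusterin, a secreted chaperone, ran from 638 to 1980 FPKM in Vehicle (median 1199) and from 421 to 753 FPKM with Enalapril (median 534), and 8 of 9 lay below all of Vehicle. It was 2.14-fold lower (log2 fold change -1.10 ± 0.15, adjusted p = 0.000163). Lcn2, the injury marker NGAL, was at medians of 128 and 70.6 FPKM, 1.87-fold lower (adjusted p = 0.000369). Reg3b, a secreted lectin, had medians of 6.81 and 2.06 FPKM and was 2.75-fold lower (adjusted p = 0.000533). Krt18, a keratin of simple epithelia, was lower without overlap (28.4 to 51.5 and 17.7 to 25.6 FPKM, adjusted p = 0.000162), but was not called after rescaling or with the inner medulla covariate. Havcr1, the marker KIM-1, which was named after its values were seen, had medians of 34.2 and 22.5 FPKM and a log2 fold change of -0.69 ± 0.12 (adjusted p = 0.000464), under the fold threshold after rescaling.

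Some collagens, matrix proteins and matrix proteases fell. Of 27 collagens 7 were lower, 4 after rescaling, 2 with the inner medulla covariate and 4 without Enalapril animal 2005, and the median log2 fold change was -0.46. Col1a1, a chain of fibrillar collagen I, ran from 37.5 to 82.5 FPKM in Vehicle (median 55.1) and from 25.1 to 41.5 FPKM with Enalapril (median 32.4), with 7 of 9 below all of Vehicle, and was 1.71-fold lower (adjusted p = 0.000303). Col3a1 of collagen III was also 1.71-fold lower, at medians of 99.2 and 59.5 FPKM (adjusted p = 0.000336). Col15a1, of a basement membrane collagen, had medians of 17.9 and 9.83 FPKM and was 1.87-fold lower (adjusted p = 0.000162).

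Of 42 other matrix proteins 10 were lower, 7 after rescaling and 3 with the covariate, and the median was -0.45. Lamb3, a laminin chain, ran from 6.79 to 17.8 FPKM in Vehicle (median 9.1) and from 3.9 to 7.4 FPKM with Enalapril (median 5.2), with 8 of 9 below all of Vehicle, and was 1.85-fold lower (adjusted p = 0.000569). Postn, periostin of scar tissue, had medians of 1.96 and 0.862 FPKM and was 2.05-fold lower (adjusted p = 0.00839). Of 40 proteases, inhibitors and cross-linkers 9 were lower, 3 after rescaling, 1 with the inner medulla covariate and 14 without animal 2103. Mmp14, a membrane-bound collagenase, had medians of 41.7 and 24.4 FPKM (log2 fold change -0.78 ± 0.13, adjusted p = 0.000271), and Timp1, an inhibitor of such enzymes, 67.4 and 41.6 FPKM (log2 fold change -0.68 ± 0.12, adjusted p = 0.00046), the latter not called after rescaling. Of 38 genes of the TGF-beta and BMP family 1 was lower, a share of 2.63%, under the 4.04% of all tested genes. It was Inhbb (log2 fold change -0.61 ± 0.14, adjusted p = 0.00333), a call lost after rescaling, with the covariate and without any of 5 animals, 1003 among them.

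Many genes of lymphocytes fell. Of 31 genes of T, NK and B cells 17 were lower, at a median log2 fold change of -0.63, and 5 were lower after rescaling and 3 with the inner medulla covariate. The summed FPKM of the list ran from 135 to 293 in Vehicle (median 198) and from 117 to 190 with Enalapril (median 144). Cd79b, of the B cell receptor, ran from 3.11 to 6.6 FPKM in Vehicle (median 4.6) and from 1.25 to 4.01 FPKM with Enalapril (median 2.07), and was 2.07-fold lower (log2 fold change -1.05 ± 0.21, adjusted p = 0.00139). Cd5, of T cells and some B cells, was 1.72-fold lower (adjusted p = 0.00163), and Cd22, of B cells, 1.85-fold lower (adjusted p = 0.000931). All 3 were also called after rescaling.

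Of 24 genes of macrophages and monocytes all had a negative log2 fold change, at a median of -0.57, and 8 were lower. After rescaling 1 was called and the median was -0.42, with 18 genes at an adjusted p under 0.05. With the inner medulla covariate none was called and the median was -0.44, with 11 genes at an adjusted p under 0.05. The count of 8 past the fold threshold moved with single animals, with 3 without 1003, 5 without 2001, 14 without 1008 and 15 without 2103. Of the 24 genes, 22 had an adjusted p under 0.05 with all animals. Without 1003 it was also 22, at a median log2 fold change of -0.52. The summed FPKM ran from 1381 to 2698 in Vehicle (median 1881) and from 895 to 1686 with Enalapril (median 1311). Itgam, the integrin CD11b, ran from 4.66 to 8.35 FPKM in Vehicle (median 5.81) and from 2.65 to 4.36 FPKM with Enalapril (median 3.72), without overlap, and was 1.61-fold lower (adjusted p = 0.000244). Csf1r, the receptor that macrophages need to survive, was named after its values were seen and missed the fold threshold (log2 fold change -0.58 ± 0.08, adjusted p = 0.000163).

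Of 36 chemokines and receptors 13 were lower, 6 after rescaling and 3 with the inner medulla covariate. Ccl21 and Ccl19, which draw T cells and dendritic cells through the same receptor, had medians of 133 and 103 FPKM in Vehicle and 77 and 62.5 FPKM with Enalapril. Their log2 fold changes were -0.82 ± 0.18 (adjusted p = 0.00241) and -0.76 ± 0.11 (adjusted p = 0.000163). Ccl17, another attractant of T cells, was lower by 3.48-fold at low levels, with medians of 2.78 and 1.01 FPKM and the lowest Enalapril animal listed at 0 (adjusted p = 0.0126). Ccl7, which attracts monocytes, was 1.92-fold lower (adjusted p = 0.00142).

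Of 42 interleukins and receptors 9 were lower and 1 higher, 1 and 1 after rescaling, 1 and none with the covariate, and 14 were lower without 2103. Il1b, interleukin-1 beta, had medians of 5.72 and 3.45 FPKM (log2 fold change -0.74 ± 0.15, adjusted p = 0.00115) and its natural antagonist Il1rn 4.52 and 2.54 FPKM (log2 fold change -0.84 ± 0.16, adjusted p = 0.000875). Both fell, and after rescaling Il1rn alone of these was called. Of 36 genes of the TNF family and NF-kB 7 were lower, 3 after rescaling and 1 with the covariate, with Birc3, an inhibitor of cell death, lower without overlap (13.8 to 27.4 and 7.79 to 13.3 FPKM, adjusted p = 0.000241).

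Of 47 genes of complement and coagulation 11 were lower, 5 after rescaling and 4 with the inner medulla covariate. C4b, a complement component of the classical pathway, ran from 39.7 to 105 FPKM in Vehicle (median 75.4) and from 23.4 to 42.6 FPKM with Enalapril (median 34.6), and was 2.04-fold lower (log2 fold change -1.03 ± 0.15, adjusted p = 0.000178). C4b and C4a are near-identical copies whose reads could have been split between them, and C4a was 1.68-fold lower (adjusted p = 0.000522). C3, the central component, was 1.77-fold lower (adjusted p = 0.000745), and Cfi, which inactivates its cleaved form, 1.9-fold (adjusted p = 0.000178). Of 27 genes of MHC and antigen presentation, all with a negative log2 fold change, 6 were lower, 3 with the covariate and 1 after rescaling, RT1-DMa, which loads peptides on class II molecules (log2 fold change -0.82 ± 0.19, adjusted p = 0.00337). Of 35 interferon-stimulated genes, all with a negative log2 fold change as deposited, 4 were lower, none after rescaling and none with the covariate, and the count ran from 1 without 1003 to 9 without 1012 or 2007.

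Of 37 genes of cell division 16 were lower, 7 after rescaling, 1 with the inner medulla covariate, 9 without 1003 and 10 without 2001, at a median log2 fold change of -0.55. Cdk1, the kinase of mitosis, ran from 2.76 to 7.96 FPKM in Vehicle (median 4.57) and from 2.15 to 3.18 FPKM with Enalapril (median 2.44), and 8 of 9 lay below all of Vehicle. It was 1.77-fold lower (log2 fold change -0.83 ± 0.16, adjusted p = 0.000817). Top2a, which untangles DNA, was 1.84-fold lower, at medians of 1.8 and 0.88 FPKM (adjusted p = 0.00196). These genes are expressed at low levels in this tissue, near the filter of 1 FPKM.

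Of 9 tested genes of the list of calcitonin gene-related peptide and adrenomedullin, which also holds related receptors, 2 were lower. Ramp1, the subunit that makes a receptor for calcitonin gene-related peptide, ran from 6.55 to 13.6 FPKM in Vehicle (median 9.39) and from 2.9 to 6.48 FPKM with Enalapril (median 4.98), without overlap. It was 2.11-fold lower (log2 fold change -1.08 ± 0.14, adjusted p = 0.000162). Sctr, the secretin receptor, was 1.68-fold lower, with medians of 4.92 and 2.86 FPKM (adjusted p = 0.000209). Both calls held after rescaling, with the inner medulla covariate, without 1003 and in every fit that left out 1 animal, and 7 other tested genes of this list were not called. Guca2b, uroguanylin, a ligand of the membrane guanylate cyclase of the gut and kidney, had medians of 35.4 and 17.8 FPKM and was 1.95-fold lower (adjusted p = 0.000804). It was the called member among 27 genes of NO, cGMP and natriuretic peptides, a share of 3.7%, near the 4.04% lower among all tested genes.

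Among barrier and adhesion genes, 3 of 16 claudins, 3 of 11 keratins and 6 of 50 adhesion molecules and integrins were lower. After rescaling, and likewise with the inner medulla covariate, none, none and 1 were called. Cldn4, which seals tight junctions of collecting duct cells, had medians of 103 and 64.5 FPKM (log2 fold change -0.73 ± 0.11, adjusted p = 0.000191). Cadm4, an adhesion molecule, ran from 5.56 to 11.5 FPKM in Vehicle and from 3.33 to 5.28 FPKM with Enalapril, without overlap, and was 1.81-fold lower (adjusted p = 0.000162), with its call kept after rescaling. Slc34a2, a sodium phosphate transporter, was lower without overlap (67.9 to 135 and 39.8 to 67.7 FPKM, adjusted p = 0.000244), a call lost after rescaling.

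Of 60 lists 15 held no DEG. None of 15 podocyte genes, 21 endothelial genes, 19 intercalated cell genes or 6 inner medulla genes was called. The endothelial genes had a median log2 fold change of -0.19, with 15 negative and 6 positive, against -0.15 over all tested genes. Kdr, the VEGF receptor of endothelium, had medians of 11.8 and 13.7 FPKM (log2 fold change 0.24 ± 0.09, adjusted p = 0.0399), under the fold threshold. Cdh5, another endothelial marker, went the other way, at medians of 12.2 and 10.5 FPKM. None of 13 mitochondrially encoded genes was called, though all had a positive log2 fold change, at a median of 0.32. Of 76 nuclear genes of the respiratory chain 72 were positive, at a median of 0.12, and none was called. Arntl, a core clock gene, was at medians of 10.2 and 11.1 FPKM (log2 fold change 0.03 ± 0.17, adjusted p = 0.92), and Edn1, endothelin-1, at 4.21 and 3.8 FPKM (log2 fold change -0.31 ± 0.15, adjusted p = 0.102). A p that misses the threshold does not show that these levels were equal.

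Genes chosen by the rule of fold change included some with unstable values. Chchd2, a mitochondrial protein gene with several copies in the genome, ran from 8.97e-05 to 20.9 FPKM in Vehicle and from 3.64e-05 to 5.47 FPKM with Enalapril, and its 7.46-fold decrease (adjusted p = 0.032) was lost without any of 8 single animals. Rps15al4, a ribosomal protein copy, ran from 0.777 to 5.04 FPKM in Vehicle and from 0 to 5.37 FPKM with Enalapril (adjusted p = 0.0434). Arhgap36, of a family of GTPase activating proteins, fell 3.63-fold, from a median of 1.32 FPKM to 0.37 FPKM (adjusted p = 0.00028), and kept its call without any animal. Ifitm10, an interferon-induced transmembrane family member, had medians of 24.6 and 10.2 FPKM and was 2.61-fold lower (adjusted p = 0.000178), also kept without any animal. Ceacam20, an adhesion molecule of the CEA family, was higher without overlap (0.809 to 3.62 and 4.07 to 11.7 FPKM, 1.88-fold, adjusted p = 0.00376).

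The Vehicle animals were not evenly placed. Vehicle animal 1003 had the highest value of the 20 animals in 302 of the 545 lower DEGs (55.4%), and 1004 in 98 (18%). In the 66 higher DEGs the lowest value was that of 1004 in 31 (47%) and of 1003 in 24 (36.4%). Over the lower DEGs the median log2 difference from the Vehicle median was 0.51 in 1003 and -0.41 in 1008, and among Enalapril animals it ran from -0.39 in 2103 to -0.91 in 2001. Without 1003, 404 DEGs were called, 40 higher and 364 lower, of which 39 and 364 were among the DEGs with it. Without 1003 and 1004, left out after the data were seen, 26 were higher and 329 lower.

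**Figure D3:**
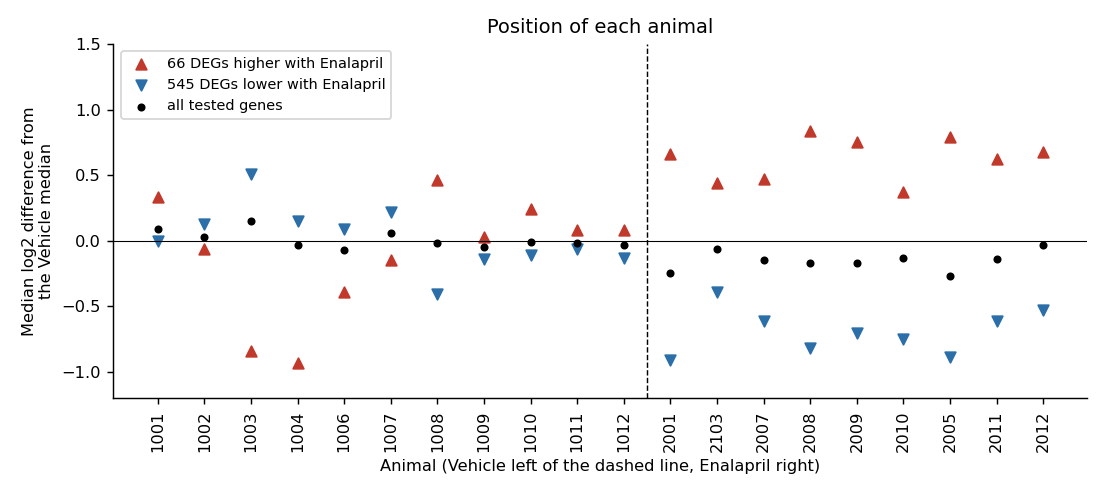
Median log2 difference of each animal from the Vehicle median, over the 545 lower DEGs, the 66 higher DEGs and all tested genes. Vehicle animal 1003 stands at 0.51 for the lower DEGs, and the Enalapril animals run from -0.39 to -0.91. These genes were chosen by this comparison, so the distance between groups is a description.

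Leaving out each animal in turn moved the total from 404 DEGs (without 1003) to 778 (without 1008). In every one of these fits 33 of the higher and 297 of the lower DEGs were called. Among those that kept their call in all of them were Egf, Acot12, Trpv6, Cma1, Cpa3, Spp1, Clu, Ramp1 and Col1a1.

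**Figure D4:**
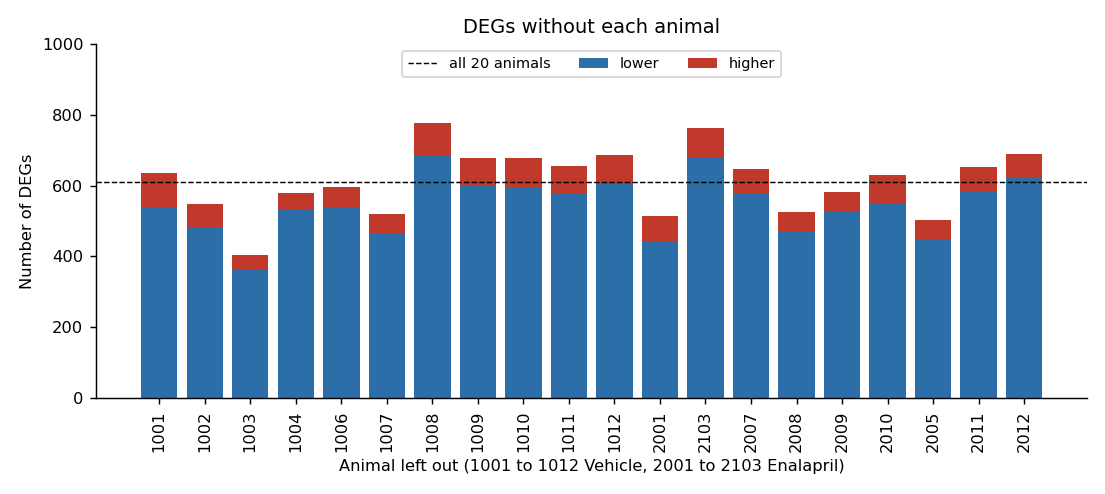
Number of DEGs, higher and lower with Enalapril, when each of the 20 animals is left out, with a dashed line at the 611 DEGs of all animals. The bar without Vehicle animal 1003 is the shortest, at 404, and that without 1008 the tallest, at 778.

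Enalapril was also given on top of Compound 1, in animals that share none with the comparison above, although the dose of Compound 1 differed between those groups. The combination against Compound 1 gave 40 higher DEGs (0.297% of tested genes) and 271 lower ones (2.01%). Of the 66 genes higher with Enalapril alone, all 66 had a positive log2 fold change there, as did 27.2% of all tested genes, and 20 were DEGs (30.3% of the 66 and 50% of the 40). Of the 545 lower genes, 539 (98.9%) were negative, as were 72.8% of all tested genes, and 169 were DEGs (31% of the 545 and 62.4% of the 271). No DEG was called in the opposite direction. The median log2 fold change was 0.71 and 0.50 for the higher genes and -0.70 and -0.51 for the lower ones, and since the genes were chosen on the first comparison, no test of that decrease was made. After rescaling of both, 202 of 205 and 159 of 164 kept their sign, and 59 and 64 were DEGs.

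**Figure D5:**
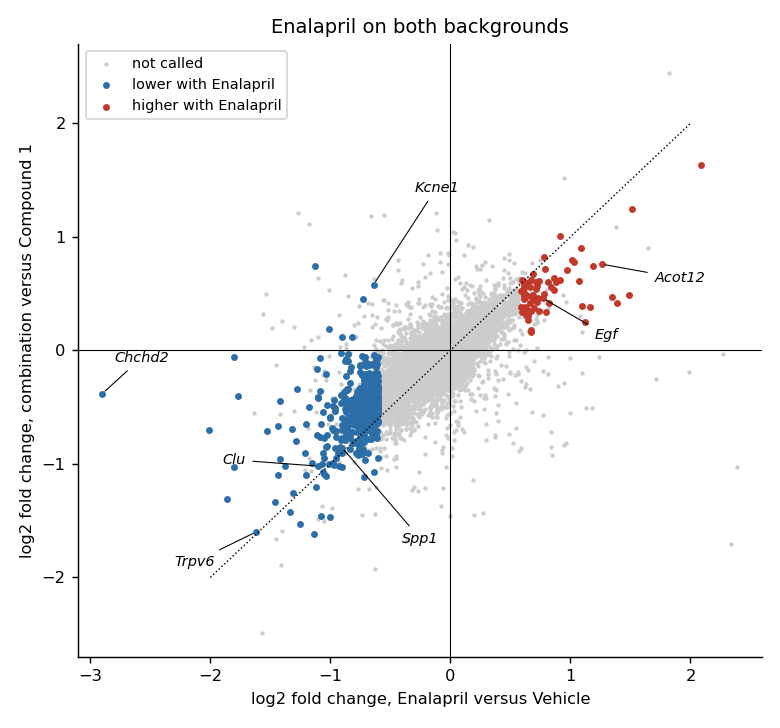
Log2 fold change of each tested gene for Enalapril against Vehicle (horizontal) and for the combination against Compound 1 (vertical), with the DEGs of the first comparison coloured blue (lower) and red (higher) and a dotted line where both are equal. No animal is in both comparisons, and most coloured points keep their side of 0, with 539 of 545 lower and all 66 higher genes on the same side.

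In the combination against Compound 1, Trpv6 had a log2 fold change of -1.60 ± 0.30 (adjusted p = 0.00211), Clu of -1.02 ± 0.18 (adjusted p = 0.00177) and Spp1 of -0.86 ± 0.14 (adjusted p = 0.00118). The mast cell genes Cpa3 and Mcpt2 were lower there too, at -0.67 ± 0.19 (adjusted p = 0.0167) and -0.80 ± 0.20 (adjusted p = 0.00947), whereas Cma1 was not called, at -0.41 ± 0.26 (adjusted p = 0.259). Ccl17, lower with Enalapril alone, had a log2 fold change of -0.06 ± 0.39 (adjusted p = 0.925), and the difference between the comparisons was 1.74 ± 0.66 (adjusted p = 0.986).

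In the test of that difference 1 gene of all tested passed (0.00742%), and 579 had an unadjusted p under 0.05. As a share of all tested genes the 579 lie below 0.05, which is no more than chance gives. Kcne1, an accessory subunit of potassium channels, ran from 3.05 to 6.28 FPKM in Vehicle (median 4.3) and from 1.82 to 5.06 FPKM with Enalapril (median 3.12). It ran from 1.18 to 3.99 FPKM with Compound 1 (median 2.89) and from 2.41 to 5.28 FPKM with the combination (median 4.29). The groups overlapped in both cases, with medians lower with Enalapril alone and higher when it was added to Compound 1. The log2 fold changes were -0.64 ± 0.16 (adjusted p = 0.00638) and 0.58 ± 0.15 (adjusted p = 0.00987, under the fold threshold), and their difference was 1.21 ± 0.23 (adjusted p = 0.0342). After rescaling the difference was 1.16 with an adjusted p of 0.248.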

How the data were processed

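Total RNA of 44 kidneys was sequenced by the authors as stranded mRNA libraries, and they deposited FPKM computed on build rn6, per the labels. Which aligner and counter they ran is not given in the sources used here. Their own test was a count model on raw counts. The deposited FPKM are not counts, so limma (version 3.58.1, under R 4.3.3, trend on) was run on log2(FPKM + 0.1) of the 11 Vehicle and 9 Enalapril animals, with Benjamini-Hochberg adjustment over all tested genes. FPKM give no read totals, so absolute depth is unknown and no counting interval is given. Relative depth came from ratios of low FPKM values. The combination against Compound 1 was fitted on their own 24 animals, and the interaction on all 44. Of 28906 symbols, 295 stand on more than 1 entry. Empty columns, 2 in all, were left out.

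Named were the 12 DEGs that rose and the 12 that fell by the largest fold, the 20 genes of lowest p, up to 6 DEGs of each of 60 lists, every tested gene of the angiotensin and kinin list, interaction DEGs, and up to 2 defining genes of a list with no DEG, 209 in all. Not all are described, and some results are not reported here. The members, lists and rule were chosen with earlier results of these data known. Csf1r, Havcr1 and Kit were named after their values were seen. The test was checked on simulated data. Alternatives were pseudocounts of 1 and 0.01, no filter, FPKM above 5, median-of-ratios rescaling, quantile normalization, mitochondrial genes removed, no fold threshold, sample weights, an inner medulla covariate, all 4 groups in the fit, and animals left out. Fits without 1003 and 1004, and rescaled without 1003, were chosen after seeing the data.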

Additional observations from a re-analysis of the deposited data

Results flagged for a closer look

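In 22 of the 209 named genes, 1 of the 9 Enalapril animals stood apart from the other 8, with a gap to its nearest neighbour larger than 0.493 of the group's range. For independent normal values chance alone gives about 1 such group in 20. These genes were selected and share the same 9 animals, so that rate may not hold for them. Animal 2103 was the one apart for Aqp4 (0.565 of the range), Fgg (0.52), Krt19 (0.558), Mcpt2 (0.496), Mcpt8l3 (0.52), Spp1 (0.513), Top2a (0.652) and Wnt7a (0.513). Of these all but Aqp4 were lower DEGs, and without 2103 all of those stayed DEGs. Animal 2012 was apart for Agtrap (0.537), Cacng5 (0.506), Cdk1 (0.557), Ceacam20 (0.8), Cyp24a1 (0.563) and Cyp2c11 (0.755), and the calls of Cyp24a1 and Cyp2c11 were lost without it. Animal 2005 was apart for Kcne1 (0.536), Olfr1442 (0.562) and Upk1b (0.516). Animal 2011 was apart for Chchd2 (0.973), 2010 for Arntl (0.507) and Il20ra (0.549), 2009 for Rps15al4 (0.689) and 2001 for Traf1 (0.541).

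Kcne1 also moved by a different amount when Enalapril was given alone and on top of Compound 1, with a difference of log2 fold changes of 1.21 ± 0.23 (limma interaction, adjusted p = 0.0342).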

How the results depend on the processing

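No paired analysis was possible because every animal has a number of its own and none is shared between groups. The counts of DEGs with Enalapril, 611 in all, changed with many settings. With a pseudocount of 1 there were 249 (42 higher, 207 lower), with FPKM above 5 293 (248 lower), after median-of-ratios rescaling 369 (205 and 164), after quantile normalization 329 (187 and 142), with mitochondrial genes removed 109 higher and 325 lower, with sample weights 40 higher, and with the inner medulla covariate 133 (10 and 123). Without a fold threshold 4071 passed (481 and 3590). Without the animals listed apart there were 591 (44 and 547), of which 470 were among the 611. These animals come last in the sample order. They are 2005, 2011 and 2012 of Enalapril, 3103 and 3011 of Compound 1, and 4005 of the combination, with no Vehicle animal among them. Of the settings chosen after seeing the data, leaving out 1003 and 1004 gave 355 (26 and 329), and rescaling without 1003 gave 236 (119 and 117). Leaving out 1 animal gave 404 to 778 in all, 40 to 95 higher and 364 to 687 lower. The cause was not tested.

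For the combination against Compound 1, the counts were 115 (19 higher, 96 lower) with a pseudocount of 1, 133 (24 and 109) with FPKM above 5, 88 higher and 139 lower after rescaling, 204 (97 and 107) after quantile normalization, 2681 (613 and 2068) without a fold threshold, 469 (416 lower) with sample weights, 22 (2 and 20) with the covariate, and 479 (423 lower) without the animals listed apart. Leaving out 1 animal gave 203 (without 3001) to 442 (without 3011), 15 to 54 higher and 188 to 388 lower. DEGs of both comparisons in the same direction numbered 189, against 70, 92, 123, 108, 1812 and 11 with a pseudocount of 1, FPKM above 5, rescaling, quantile normalization, no fold threshold and the covariate. The interaction gave 0 genes by limma with no filter, FPKM above 5, rescaling, quantile normalization, mitochondrial genes removed, and without 2103 and 3102 to 3105, where 925, 456, 564, 596, 439 and 624 had an unadjusted p under 0.05. Each of these counts is a share under 0.05 of the genes tested, no more than chance gives.

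No called gene among those named turned sign. Of those not called, Agtr1a turned to -0.05 without the animals listed apart, and ran from -0.01 (without 2011 or 2012) to 0.06 when 1 animal was left out. Agtr1b turned to 0.11 (rescaling), 0.19 (quantile), 0.03 (mitochondrial genes removed), 0.07 (rescaling without 1003) and ran from -0.11 to 0.04 when 1 animal was left out, and Agtrap to 0.04 under rescaling with and without 1003. FPKM hold no read totals, so how far depth limits the low genes is unknown.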
